A study of Mus musculus with 6 samples.

Results

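The natriuretic peptide system of the mouse heart was followed through 9 genes: the peptide genes Nppa, Nppb and Nppc, the receptor genes Npr1, Npr2 and Npr3, and the protease genes Corin, Furin and Mme. They were taken by gene name from a deposited table of 46452 genes, in which each name occurred once. Hearts of 10-day-old mice were compared between 3 libraries labelled Nat10 flox/flox, in which both copies of the RNA acetyltransferase gene Nat10 carry loxP sites, and 3 labelled Nat10-CKO, a name for a conditional knockout. The Cre driver, the cells it acts in, the strain and the sex are not given in the labels used here, and no other agent is named. The labels call the 3 libraries of each group independent biological replicates, and the series asks what NAT10 does in heart development.

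Natriuretic peptides are hormones, and heart muscle cells make those of Nppa and Nppb when they are stretched. Nppa encodes atrial natriuretic peptide (ANP), Nppb brain natriuretic peptide (BNP) and Nppc C-type natriuretic peptide (CNP). Each is made as a longer precursor: the membrane protease corin cuts the ANP precursor and furin can cut those of BNP and CNP. ANP and BNP act through NPR1 and CNP through NPR2, receptors that make cyclic GMP, while NPR3 binds all of them and clears them, and neprilysin, the product of Mme, degrades them. Nppa and Nppb are active in the fetal ventricle, decline there after birth and are reactivated in strained heart muscle.

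Depth ranged from 31155521 to 38051266 reads in genes. Levels are in FPKM, fragments per kilobase divided by a size for each library. That size was not the number of reads in genes. It was 40712149 for 38051266 reads in flox/flox replicate 1 and 33985262 for 35854754 reads in Nat10-CKO replicate 3. The transcript of Nat10 went up rather than down with the label Nat10-CKO. It was at 3.75, 4.18 and 4.71 FPKM in the flox/flox libraries, against 8.28, 8.66 and 10.2 FPKM (limma adjusted p = 0.00142). The label is therefore not borne out by the whole-gene value of the target gene, which cannot show whether part of the transcript was lost. Directions are given by label only. Mitochondrially encoded genes took 16.6% to 18.3% of reads in the flox/flox libraries and 7.56% to 9.26% in the others. The nerve markers summed to 445 FPKM in flox/flox replicate 1 and to 7.98 to 35.4 FPKM in the other 5 libraries. The 6 markers of ventricular muscle summed to 5330 to 6320 FPKM and 4098 to 6813 FPKM, so heart muscle was present in all libraries. Gapdh, which every cell uses, was listed at only 3.40 to 6.61 FPKM, so a low value in this table need not mean little RNA.

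Of the 9 genes, 7 reached the mean of 1 FPKM needed for the test, and none of them through 1 group alone, since the lowest group mean was 2.39 FPKM. Nppa, Nppb and Npr3 rose, Corin fell, and Npr1, Npr2 and Furin did not pass. These 4 calls among 7 compare with 40.5% of all 11996 tested genes called, 24.4% higher and 16.0% lower, and nothing is read from a count over 7 genes. The groups did not overlap for any of the 7, a state shared by 55.9% of tested genes. Among the called members, Nppa and Nppb alone differed by 1 or more on the log2 scale, as 12.7% of tested genes did. Log2 fold changes here are limma estimates on log2(FPKM + 1), a scale that shrinks the change of genes at low level, and a call is a Benjamini-Hochberg adjusted p under 0.05 over all tested genes.

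**Figure D1:**
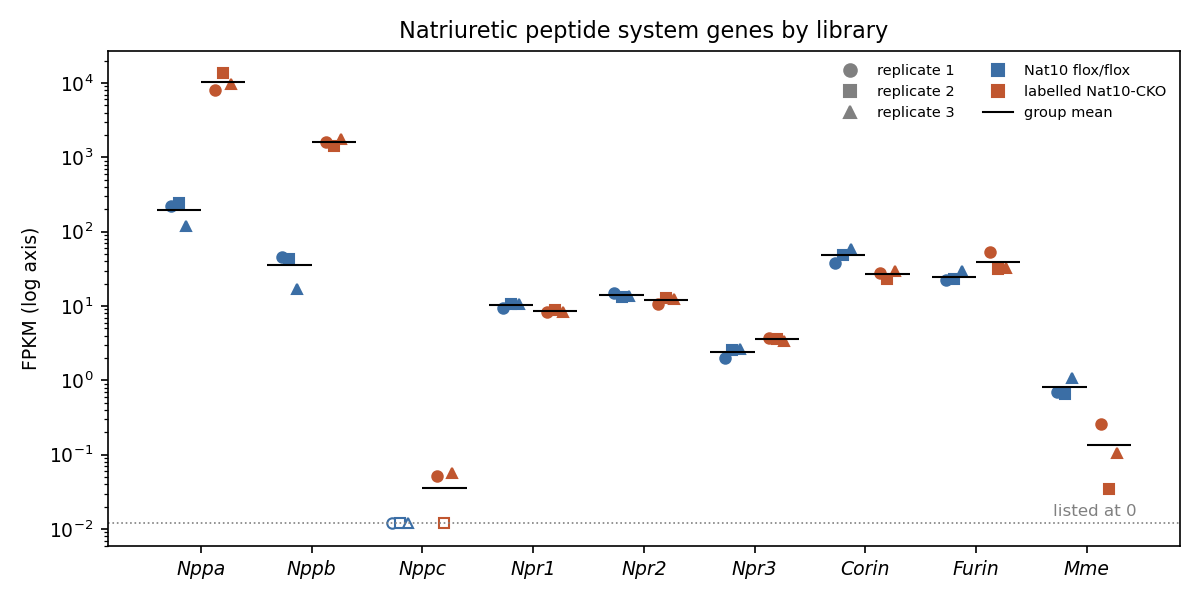
FPKM of the 9 genes in each library on a log axis, with blue for Nat10 flox/flox, orange for the libraries labelled Nat10-CKO, a symbol for each replicate and a bar for the group mean (open symbols on the dotted line are listed at 0). Nppa and Nppb lie far apart between the groups, while the receptors differ by little.

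Nppa (gene ID 230899, chr4:148085179-148086531, plus strand, GRCm39) was the most abundant of the 9 in both groups. It had 221, 243 and 119 FPKM in the flox/flox libraries, against 8008, 13522 and 9698 FPKM under the label Nat10-CKO. The groups lay far apart, with the lowest value in flox/flox replicate 3 and the highest in Nat10-CKO replicate 2. The log2 fold change was 5.77 ± 0.33 (SE, n = 3 per group) with a limma adjusted p of 0.00017. Leaving out any 1 library kept the ratio of group means between 44.9 and 61.2. Nppa ranked 207th, 198th and 420th of all listed genes by FPKM in the flox/flox libraries and 3rd, 2nd and 3rd in the others. It took 0.0204%, 0.0212% and 0.00989% of reads in the flox/flox libraries and 0.720%, 1.14% and 0.791% in the libraries labelled Nat10-CKO. In bulk tissue, fewer cells of a type and less RNA per cell cannot be told apart, and the same holds for more.

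Nppb (gene ID 18158, chr4:148070264-148071662, plus strand) had 46.1, 43.4 and 17.0 FPKM in the flox/flox libraries, against 1618, 1407 and 1738 FPKM under the label Nat10-CKO. As for Nppa, flox/flox replicate 3 was lowest and the groups lay far apart. The log2 fold change was 5.56 ± 0.37 (SE, n = 3 per group) with a limma adjusted p of 0.000257, and the ratio of group means was 35.5 to 52.6 when any 1 library was left out. Nppb ranked 1004th, 1079th and 2801st of all listed genes in the flox/flox libraries and 17th, 23rd and 21st in the others.

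Nppa is best known as an atrial gene, so markers of atrial muscle were read beside it. Of 12 atrial markers 7 were tested, and 0 rose and 3 fell, beside 24.4% of all tested genes higher and 16.0% lower. The summed level of the 12 was 119 to 123 FPKM in the flox/flox libraries, against 90.6 to 149 FPKM in the others. Most of it came from Pam. The atrial light chain genes Myl7 and Myl4 stayed under 1 FPKM in all 6 libraries. The sarcolipin gene Sln had at most 0.325 FPKM, and Bmp10 was listed at 0 throughout. Myl4, not tested, had 0.0903, 0.0755 and 0.143 FPKM in the flox/flox libraries, against 0.236, 0.388 and 0.267 FPKM in the others. That was 2.89-fold higher in the mean, without overlap. Nr2f1, also not tested, was lower without overlap, at 1.34 ± 0.338 and 0.593 ± 0.0784 FPKM (SD, n = 3 per group). Kcnj3, a subunit gene of an acetylcholine-gated potassium channel, fell from 5.72 ± 0.649 to 0.558 ± 0.243 FPKM (SD, n = 3 per group, limma adjusted p = 0.000287). Myl1 fell from 4.20 ± 0.977 to 1.39 ± 0.707 FPKM and Stard10 from 9.91 ± 3.69 to 4.99 ± 0.886 FPKM. The 4 tested markers that did not pass had log2 fold changes of 1.15 (Dkk3, limma adjusted p = 0.0528), 0.30 (Gja5), 0.18 (Pam) and -0.35 (Nr2f2). The part of atrial tissue in the Nppa difference was not tested.

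Nppc (gene ID 18159, chr1:86594015-86598295, minus strand) was at the limit of detection. It was listed at 0 in all 3 flox/flox libraries and had 2, 0 and 2 reads in the libraries labelled Nat10-CKO. A count of 0 allows up to 3 reads, or 0.0707 to 0.0909 FPKM in the flox/flox libraries, so a difference was not detectable at this depth and no fold is given. These floors cover counting error only.

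The ratio of Nppb to Nppa within a library was compared because both rose. In FPKM, and so per length, it was 0.208, 0.179 and 0.143 in the flox/flox libraries and 0.202, 0.104 and 0.179 in the libraries labelled Nat10-CKO. The values overlapped, with Nat10-CKO replicate 2 lowest. The difference of mean log2 ratios was -0.17 (two-sided exact permutation p = 0.7, n = 3 per group, smallest possible 0.1), and it turned to 0.12 without Nat10-CKO replicate 2.

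By a root mean square distance of log2(FPKM + 1) profiles over the 6 libraries, each centred on its mean, Nppb was the protein-coding gene nearest to Nppa (0.34) and Nppa the nearest to Nppb. Next to Nppa came Gdf15 (distance 0.47), a hormone made by stressed cells, then Tnfrsf12a (0.59), Xirp2 (0.62) and the slow myosin gene Myh7 (0.64). Next to Nppb came Gdf15 (0.55), Tnfrsf12a (0.60), Tent5b (0.66) and Xirp2 (0.73). The measure mainly picks genes with a group difference of like size, and no test goes with it.

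**Figure D2:**
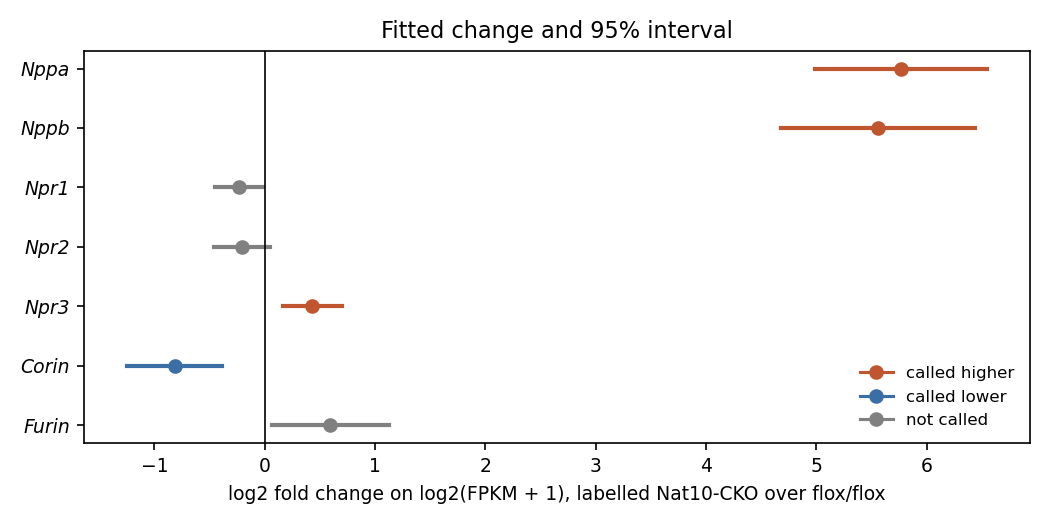
Fitted log2 fold change on log2(FPKM + 1) and its 95% interval for the 7 tested genes, libraries labelled Nat10-CKO over Nat10 flox/flox, n = 3 per group, with orange for called higher, blue for called lower and grey for not called. Nppa (5.77) and Nppb (5.56) stand apart, and Corin (-0.82) lies below 0.

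Both genes lie side by side on chromosome 4, 13516 bases apart, and their promoters are shown because they moved together. The sequences are from RefSeq (GRCm38.p6) and were matched once each to GRCm39. They run from 250 to 71 bases before the RefSeq start, which equals the deposited gene start for Nppa and lies 93 bases after it for Nppb. Capitals mark GATAA, the core of sites for GATA factors, CATTCC, the site of TEAD factors, and AAGTG, the core of NKX2-5 sites, each on either strand.
Nppb, chr4:148070107-148070286, plus strand: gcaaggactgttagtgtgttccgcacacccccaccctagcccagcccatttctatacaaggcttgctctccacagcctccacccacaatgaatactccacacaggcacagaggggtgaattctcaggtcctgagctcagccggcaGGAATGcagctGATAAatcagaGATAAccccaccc
Nppa, chr4:148084929-148085108, plus strand: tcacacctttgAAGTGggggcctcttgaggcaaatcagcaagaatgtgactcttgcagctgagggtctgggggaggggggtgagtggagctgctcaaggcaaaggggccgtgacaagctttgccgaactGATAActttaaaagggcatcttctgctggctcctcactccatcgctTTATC
In windows of 300 bases, from 250 before to 50 after the start, each promoter held 2 matches to GATAA. A match was present in 25.4% of 32851 RefSeq promoters and 2 or more in 5.27%. The GATAA matches began 94 and 83 bases before the start in Nppb, and 121 and 75 bases before it in Nppa. CATTCC occurred once in Nppb and not in the Nppa window (14.7% of promoters). AAGTG occurred 2 times in Nppa, the second beginning 65 bases before the start, and not in the Nppb window (46.4%). The T-box sequence TCACACC was found once in Nppa (3.98%). The AP-1 sequence TGANTCA (7.81%) and the strict CArG box of SRF, CCWWWWWWGG with W for A or T (1.63%), matched neither window. Forms of the CArG box that depart from these letters were not searched for. Matches on both strands were counted and a palindrome once, AAGTG and TCACACC in Nppa do not overlap, and a match is a description of the letters only.

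Genes around the pair were examined within 200000 bases on either side, using the deposited coordinates. Of 17 tested genes there, 7 rose and 0 fell, and 5 of the 15 other than Nppa and Nppb rose (33.3%, beside 24.4% of all tested genes). None of the 7 tested genes on the Nppb side passed, among them the mitochondrial fusion gene Mfn2 at 181 ± 27.7 and 207 ± 9.58 FPKM (SD, n = 3 per group). The 5 that rose were among the 8 tested genes on the Nppa side. The split by side is a description and was not tested. Clcn6, a chloride transporter gene that ends 2185 bases from Nppa on the other strand, had 4.90, 3.49 and 3.72 FPKM in the flox/flox libraries, against 6.95, 6.59 and 5.76 FPKM in the others (log2 fold change 0.57 ± 0.13 SE, limma adjusted p = 0.0161). That call was lost without flox/flox replicate 2 (0.0612) or 3 (0.0599) or Nat10-CKO replicate 2 (0.0538), and with mitochondrially encoded genes left out (0.0761). Agtrap, which encodes an angiotensin receptor-associated protein, went from 15.1 ± 1.11 to 30.4 ± 3.28 FPKM. The ubiquitin ligase subunit genes Fbxo6 and Fbxo44 rose 1.70-fold and 2.63-fold. The log2 fold changes of these 5 genes were 0.57 to 1.20, against 5.56 and 5.77 for Nppb and Nppa.

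**Figure D3:**
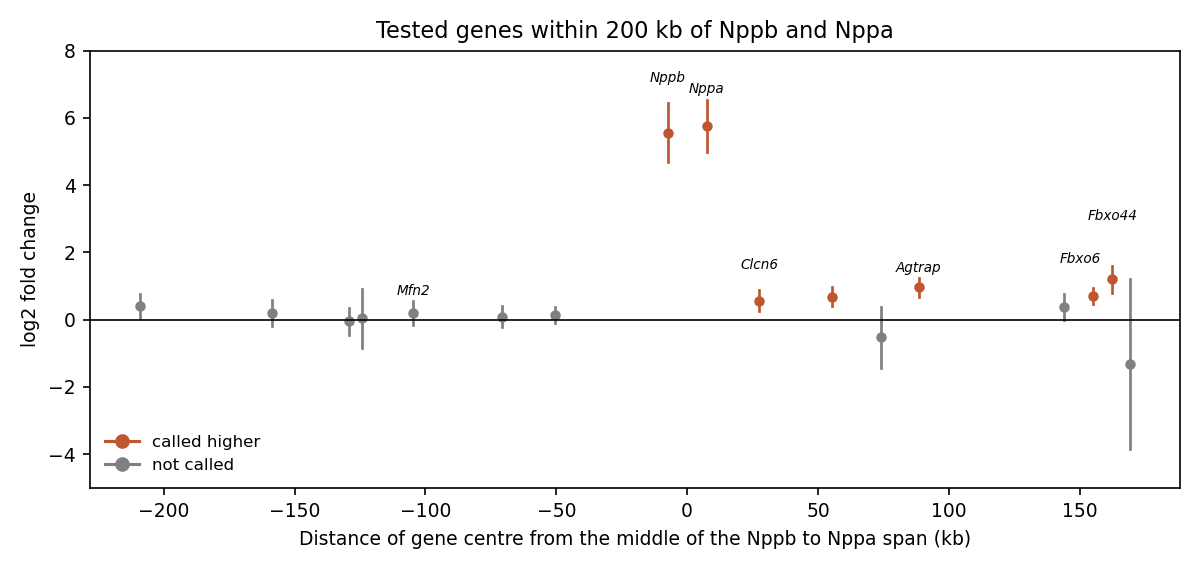
Fitted log2 fold change and 95% interval of the 17 tested genes within 200 kb of the Nppb to Nppa span, against the distance of each gene's centre from the middle of the span in kb (negative on the Nppb side), with orange for called higher, grey for not called and names for some genes of the text. The 5 other genes that rose lie on the Nppa side, with values from 0.57 to 1.20 on the log2 scale, a split by side that was not tested.

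Npr1 (gene ID 18160, chr3:90357898-90373235, minus strand), the receptor of ANP and BNP, was at 9.42, 10.6 and 10.5 FPKM in the flox/flox libraries, against 8.36, 8.79 and 8.37 FPKM under the label Nat10-CKO. All 3 of the latter were lower, but the difference did not pass (log2 fold change -0.23 ± 0.09 SE, 95% interval -0.45 to -0.02, limma adjusted p = 0.082). It did pass with mitochondrially encoded genes left out (adjusted p = 0.0108), under quantile normalization (0.0258), with array weights (0.0235) and when scaled to total reads (0.0498).

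Npr2 (gene ID 230103, chr4:43629015-43651437, plus strand), the receptor of CNP, was at 15.0, 13.3 and 13.8 FPKM in the flox/flox libraries, against 10.8, 13.0 and 12.4 FPKM in the others. The groups did not overlap, by a narrow margin, and the difference did not pass (log2 fold change -0.21 ± 0.11 SE, 95% interval -0.46 to 0.05, limma adjusted p = 0.165). It passed under quantile normalization (adjusted p = 0.0241) and with mitochondrially encoded genes left out (0.0258).

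Npr3 (gene ID 18162, chr15:11839982-11907923, minus strand), the clearance receptor, moved the other way. It had 2.02, 2.56 and 2.60 FPKM in the flox/flox libraries, against 3.76, 3.56 and 3.37 FPKM under the label Nat10-CKO. Every value of the latter was higher, and Npr3 rose 1.49-fold (log2 fold change 0.43 ± 0.11 SE, limma adjusted p = 0.0224). The call rests on single libraries and on the scaling: the adjusted p was 0.0613 without flox/flox replicate 1, 0.0543 without flox/flox replicate 2, 0.0659 without Nat10-CKO replicate 2 and 0.0794 with mitochondrially encoded genes left out.

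In the heart Npr3 marks the endocardium, the inner lining, so endothelial and endocardial markers were read beside it. Of 12 such markers 8 fell (16.0% of all tested genes fell) and 0 rose, and their summed level was 790 to 987 FPKM in the flox/flox libraries, against 431 to 516 FPKM in the others. The largest part of these sums came from Fabp4, at 405 to 599 FPKM and 203 to 277 FPKM. The part of these markers in the Npr3 value was not tested. The markers that fell included Kdr, from 35.3 ± 6.27 to 9.67 ± 0.476 FPKM (SD, n = 3 per group), and Emcn, from 25.4 ± 3.72 to 15.2 ± 0.654 FPKM. The 4 that did not pass had log2 fold changes of 0.44 (Plvap), 0.31 (Vwf), -0.04 (Nfatc1) and -0.22 (Cytl1).

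The ratio of Npr3 to Npr1 within a library does not depend on the scaling of that library. It was 0.215, 0.241 and 0.247 in the flox/flox libraries and 0.450, 0.406 and 0.403 in the libraries labelled Nat10-CKO, both in FPKM and so per length. All 3 ratios of the latter were higher, and the mean log2 ratio differed by 0.84. The two-sided exact permutation p was 0.1 (n = 3 per group), the smallest that the design allows, so the comparison cannot pass 0.05. Leaving out any 1 library left the difference between 0.78 and 0.88.

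**Figure D4:**
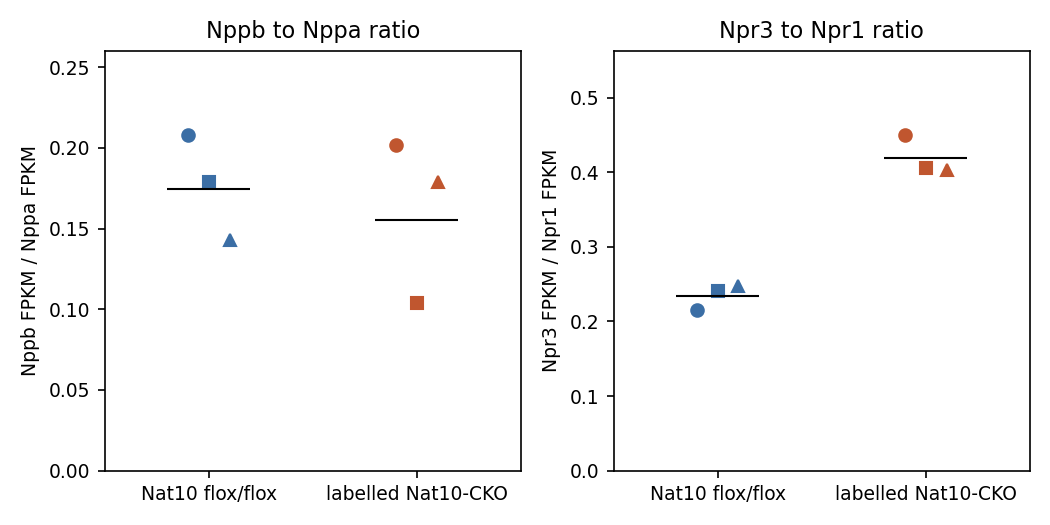
Ratio of Nppb to Nppa FPKM (left) and of Npr3 to Npr1 FPKM (right) in each library, both axes from 0, with blue for Nat10 flox/flox, orange for the libraries labelled Nat10-CKO, a symbol for each replicate and a bar for the geometric mean. The Nppb to Nppa ratios overlap between groups, and the Npr3 to Npr1 ratios do not (0.215 to 0.247 against 0.403 to 0.450).

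Corin (gene ID 53419, chr5:72457291-72661883, minus strand), the ANP convertase of heart muscle cells, fell while its substrate gene rose. It was at 38.2, 47.9 and 58.7 FPKM in the flox/flox libraries, against 27.4, 23.1 and 29.5 FPKM under the label Nat10-CKO. Every flox/flox value was higher, a 1.81-fold difference (log2 fold change -0.82 ± 0.18 SE, limma adjusted p = 0.012). The call held under all 19 alternatives, with adjusted p from 0.000732 to 0.0451. The 8 markers of heart muscle cells summed to 17895 to 21809 FPKM and to 10842 to 17752 FPKM. Of these markers 2 fell and 0 rose, beside 16.0% of all tested genes lower and 24.4% higher. The 2 that fell were Tnni3 and Pln. The 6 that did not pass had log2 fold changes of 0.08 (Tnnt2), -0.06 (Myh6), -0.07 (Tnnc1), -0.34 (Ttn), -0.38 (Ryr2) and -0.81 (Actc1). The part of these markers in the Corin value was not tested. The 5 protein-coding genes nearest to Corin by the distance defined above were Isoc1 (0.08), Pdpr (0.08), Slc25a16 (0.10), Aldh9a1 (0.11) and Sox18 (0.11).

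Furin (gene ID 18550, chr7:80038942-80055188, minus strand), a convertase present in most cells, was at 22.3, 22.8 and 29.2 FPKM in the flox/flox libraries, against 52.7, 31.3 and 32.3 FPKM in the others. The groups did not overlap, but 1 library, Nat10-CKO replicate 1, stood well above the rest. The difference did not pass (log2 fold change 0.60 ± 0.22 SE, 95% interval 0.06 to 1.13, limma adjusted p = 0.073), and the ratio of group means was 1.57, or 1.28 without that library. Of the proteases, Corin ranked above Furin in the flox/flox group, where the values did not overlap (38.2 to 58.7 against 22.3 to 29.2 FPKM). Furin ranked above Corin under the label Nat10-CKO, again without overlap (31.3 to 52.7 against 23.1 to 29.5 FPKM).

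Mme (gene ID 17380, chr3:63202632-63291134, plus strand), the neprilysin gene, lay below the level needed for the test. It had 189, 138 and 258 reads in the flox/flox libraries (0.691, 0.649 and 1.08 FPKM) and 65, 8 and 24 reads in the libraries labelled Nat10-CKO (0.263, 0.0343 and 0.105 FPKM). All 3 of the latter were lower, by 6.02-fold in the mean, or 11.6-fold without Nat10-CKO replicate 1. With no filter on level the limma estimate was -0.67 ± 0.13 on the log2(FPKM + 1) scale (SE, adjusted p = 0.0212).

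In order of level, the flox/flox group ran from Nppa through Corin, Nppb, Furin, Npr2, Npr1, Npr3 and Mme to Nppc. There the ranges of Nppb and Corin overlapped, as did those of Nppb and Furin, and no other neighbours did. In the libraries labelled Nat10-CKO, Nppb was second and Corin came after Furin, and the other places were the same. No range overlapped that of its neighbour except Mme and Nppc, where Mme had 0.0343 FPKM in 1 library.

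Beyond the 9 genes, a list of 18 genes of cyclic GMP signalling had 13 tested members, of which 2 rose and 6 fell, beside 24.4% of all tested genes higher and 16.0% lower. Their median log2 fold change was -0.29, beside 0.03 over all tested genes. Both tested subunit genes of soluble guanylate cyclase, the nitric oxide receptor that also makes cyclic GMP, fell. Gucy1a1 was 5.57 ± 0.627 FPKM in the flox/flox group and 2.72 ± 0.195 FPKM in the other (SD, n = 3 per group, limma adjusted p = 0.00178). Gucy1b1 went from 8.32 ± 1.02 to 5.40 ± 0.363 FPKM (adjusted p = 0.0108). Of 5 tested phosphodiesterase genes 1 fell, Pde3a, and 0 rose. The kinase gene Prkg1 had 2.33, 1.65 and 2.02 FPKM against 2.76 to 3.39 FPKM (limma adjusted p = 0.0343), a call lost without flox/flox replicate 2 (0.112) or 3 (0.0885) and without Nat10-CKO replicate 1 (0.0565) or 2 (0.11). It was also lost with no filter (0.0884), scaled to total reads (0.0578), without the mitochondrially encoded genes (0.122) and with the replicate number as a block (0.0743).

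Of 5 tested targets of that kinase 1 rose and 3 fell, the latter with Mrvi1 among them (adjusted p = 0.0179). These counts stand beside 24.4% of all tested genes higher and 16.0% lower. Ppp1r12a, the targeting subunit of myosin phosphatase, rose from 10.3 ± 0.215 to 39.5 ± 11.2 FPKM (limma adjusted p = 0.000895). Pln, phospholamban, fell from 2137 ± 267 to 604 ± 241 FPKM (adjusted p = 0.00304). Rgs2, a brake on Gq signalling, had 10.7, 14.4 and 30.0 FPKM in the flox/flox libraries, against 5.11, 3.38 and 3.60 FPKM under the label Nat10-CKO, with no overlap (adjusted p = 0.00721). Pericyte and smooth muscle markers, cells in which soluble guanylate cyclase is prominent, summed to 292 to 340 FPKM and to 154 to 185 FPKM. Of 8 tested markers 4 were lower and 1 higher, beside 16.0% and 24.4% of all tested genes. The part of these cells in the values of the cyclic GMP genes was not tested.

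A list of 21 other genes of peptide processing, granules and degradation had 11 tested members, of which 1 rose and 1 fell (median log2 fold change -0.04). Over all tested genes 24.4% rose and 16.0% fell. Pcsk6, a convertase that activates corin, fell. It was at 19.3, 23.3 and 26.6 FPKM in the flox/flox libraries, against 5.62, 11.2 and 11.8 FPKM under the label Nat10-CKO, each of the latter below each of the former (log2 fold change -1.24 ± 0.27 SE, limma adjusted p = 0.0118). Ide, insulin-degrading enzyme, which also cuts ANP, was at 12.9, 14.4 and 15.2 FPKM against 21.8, 17.0 and 31.1 FPKM. It passed narrowly (adjusted p = 0.0493) and missed the threshold under 11 of 19 alternatives (adjusted p from 0.0184 to 0.156 over all of them), among them leaving out any library but Nat10-CKO replicate 2. The granule gene Pam, whose product is abundant in ANP granules, was at 85.5 to 93.6 FPKM and 73.1 to 124 FPKM and did not pass (adjusted p = 0.523). Ostn, whose product osteocrin binds NPR3, was listed at 0 in all libraries. The granule genes Chga and Scg5 had 5.31 and 12.2 FPKM in flox/flox replicate 1, the library with high nerve markers, and at most 0.0308 FPKM elsewhere.

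A list of 31 transcription factors and cofactors that act on Nppa or Nppb had 30 tested members, of which 13 rose and 3 fell, with a median log2 fold change of 0.32. These counts, and those by role, stand beside 24.4% of all tested genes higher and 16.0% lower. Of 20 tested activators 10 rose and 0 fell. Of 7 tested repressors 3 fell and 1 rose, Hdac5, which passed narrowly (limma adjusted p = 0.0491). Nkx2-5, a cardiac homeobox factor, had 43.4, 38.4 and 44.0 FPKM in the flox/flox libraries, against 175, 152 and 170 FPKM under the label Nat10-CKO (limma adjusted p = 0.000194). Gata4, a factor that binds GATA sites, had means of 35.0 ± 2.95 and 107 ± 20.4 FPKM (SD, n = 3 per group), Srf, serum response factor, from 19.1 ± 2.09 to 39.2 ± 1.66 FPKM, and the stress factor gene Atf3 from 4.94 ± 1.10 to 81.3 ± 34.8 FPKM. The 3 that fell are known as repressors of Nppa or of its activators in mouse. Tbx2 went from 6.06 ± 0.317 to 3.27 ± 0.296 FPKM (adjusted p = 0.00185) and Tbx3 from 4.51 ± 0.619 to 2.42 ± 0.103 FPKM (adjusted p = 0.00416). Jarid2 went from 1.69 ± 0.103 to 0.884 ± 0.168 FPKM (adjusted p = 0.0198), a call lost without flox/flox replicate 2 (0.0577) or 3 (0.0761), under quantile normalization (0.0523) and with the replicate number as a block (0.053). The list was drawn up with earlier results of these data known, so its directions are a description.

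**Figure D5:**
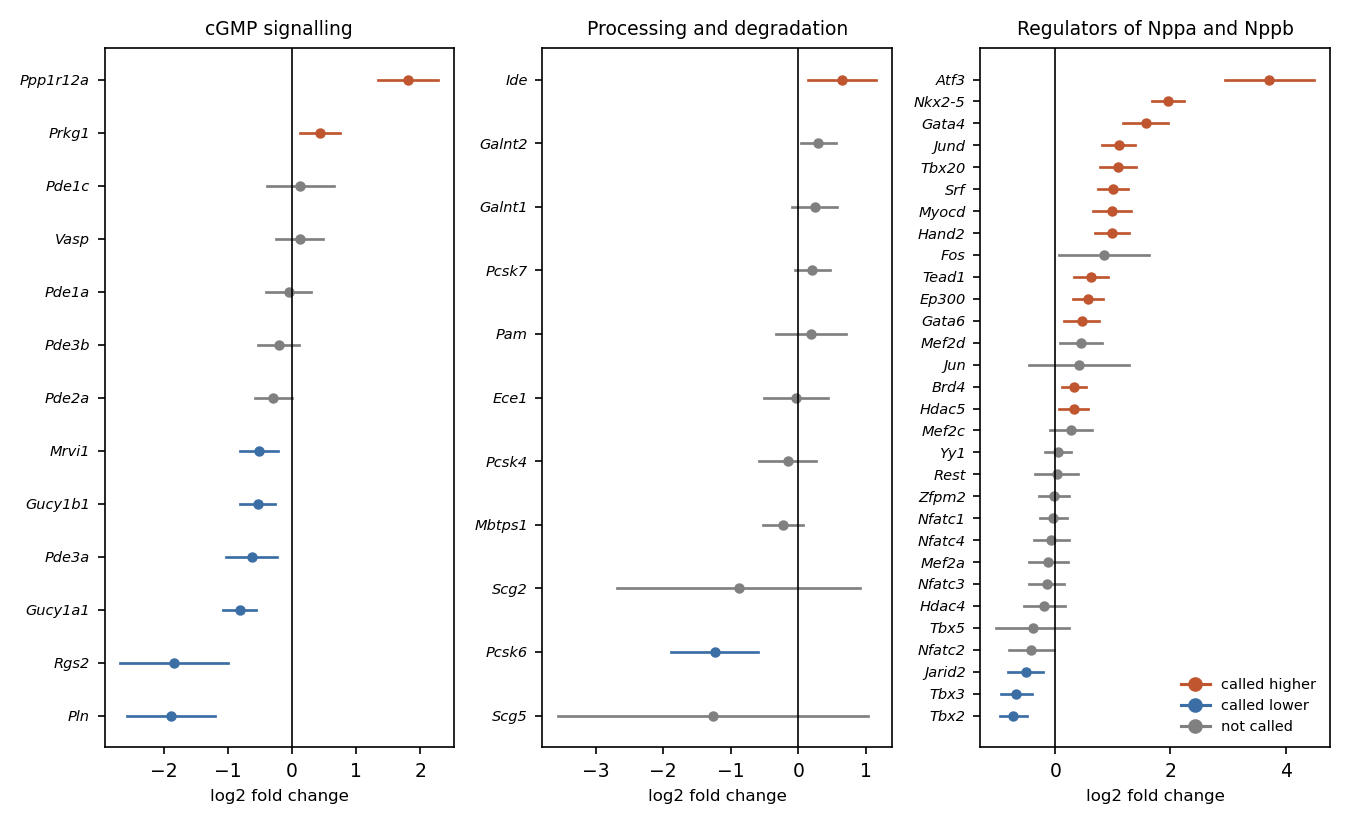
Fitted log2 fold change on log2(FPKM + 1) and 95% interval of the tested genes of 3 lists (cyclic GMP signalling, peptide processing and degradation, regulators of Nppa and Nppb), libraries labelled Nat10-CKO over Nat10 flox/flox, with orange for called higher, blue for called lower and grey for not called. The regulators hold 13 genes called higher and 3 called lower, and the cyclic GMP list 2 and 6.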

How the data were processed

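Poly(A) RNA of mouse hearts was sequenced from directional libraries, 3 per genotype label. Alignment used HISAT2 2.2.1 on GRCm39 and counting used featureCounts 2.0.6, per the series' design text and the submitters' processing notes. The deposited values are FPKM per library. The sources used here do not give the strand setting of the counting, so overlapping antisense genes are uncertain (lowly listed genes overlap Npr2, Npr3, Corin and Furin). Read numbers were recovered from FPKM and gene length, and 100% of values were whole reads within a tolerance of 0.01 read.

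The group difference was fitted by limma 3.58.1 in R 4.3.3 (trend, two-sided, no covariate) on log2(FPKM + 1) over genes with a mean of at least 1 FPKM, with Benjamini-Hochberg adjustment over all 11996. Ratios were compared by exact permutation. The method was tested on simulated reads with few changed genes and a fixed spread, so that test does not bear on the calls here. Named genes were the 9 members, Nat10, up to 4 list genes per direction with the smallest adjusted p, the 5 nearest profiles and the genes near Nppa and Nppb. Other names were chosen after their values were seen: Gapdh, Myl7, Myl4, Sln, Bmp10, Kcnj3, Myl1, Stard10, Dkk3, Gja5, Nr2f1, Nr2f2, Kdr, Emcn, Plvap, Vwf, Nfatc1, Cytl1, Pam, Ostn, Chga, Scg5, Pde3a, Mrvi1 and Hdac5. So were Fabp4, Tnni3, Tnnt2, Myh6, Tnnc1, Ttn, Ryr2 and Actc1. The members and lists were chosen with earlier results of these data known. Some neighbouring genes are given as counts, and some items are not reported here. Sequences were read with Biopython 1.88 and figures drawn with matplotlib 3.10.9.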

Additional observations from a re-analysis of the deposited data

How the results depend on the processing

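Each fit was repeated with pseudocounts of 0.1 and 0.5, other filters and scalings, no trend, array weights, voom applied to recovered reads, a replicate block, and single libraries left out. Nppa (log2 fold change 5.45 to 6.19), Nppb (5.11 to 5.81) and Corin (-1.07 to -0.67) kept their calls under all 19, and Furin missed the threshold under all 19 (adjusted p from 0.0505). Npr3 lost its call with no filter (0.43, adjusted p = 0.059), with mitochondrially encoded genes left out (0.29), without both libraries numbered 1 (0.32, adjusted p = 0.0758) and, among single libraries left out (0.35 to 0.48), in 3 cases. With the replicate block Npr3 was at 0.43 with an adjusted p of 0.057. The labels used here give no pairing of same-numbered libraries. Their deviations correlated at 0.06, 0.04 and 0.11, against -0.12 to 0.07 for libraries with unlike numbers. Whether same-numbered libraries shared an origin cannot be told from these values. Under the block the higher cyclic GMP genes went from 2 to 1. Npr1 gained a call when scaled to total reads (-0.27), under quantile normalization (-0.36), without mitochondrial genes (-0.41) and with array weights (-0.22), and Npr2 under quantile normalization (-0.39) and without mitochondrial genes (-0.39). Leaving out mitochondrial genes moved the median of all tested genes from 0.03 to -0.12, and rescaling protein-coding genes to 0.17.

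Of the 9 genes, the number called lower was 1, and became 2 with no filter, scaled to total reads or with array weights, 3 under quantile normalization or without mitochondrial genes, and 0 with a minimum absolute log2 fold change of 1. Under that minimum the counts were 1 higher and 2 lower for cyclic GMP genes, 0 higher for processing genes, 6 higher and 0 lower for regulators, and 3 higher near Nppa and Nppb. The higher cyclic GMP genes were 1 with no filter, at a mean of at least 5 FPKM, scaled to total reads or without mitochondrial genes (1 to 2 with a library left out). The higher processing genes were 0 with no filter, under quantile normalization, without mitochondrial genes or without trend, 3 with protein-coding genes rescaled and 2 with array weights (0 to 1 with a library left out). The lower ones were 2 under quantile normalization or without mitochondrial genes (1 to 2 with a library left out). The lower regulators were 0 at a mean of at least 5 FPKM, where the 3 were no longer tested, and 5 with array weights (2 to 5 with a library left out). Array weights added 1 lower gene near Nppa and Nppb. The Nppb to Nppa ratio ran from -0.36 to 0.12 with a library left out. For Nat10, the list genes named by smallest adjusted p and the called genes near Nppa and Nppb, 366 estimates kept direction and call and 27 lost the call. The other names beyond the 9 members were not followed singly through these settings. The cause of these changes was not tested.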
